A study of Mus musculus with 6 samples.

Results

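EphB receptors and their ephrin-B ligands were examined in ipsilateral and contralateral retinal ganglion cells (RGCs), the retinal neurons whose axons turn back or cross at the midline of the optic chiasm. The members were all probe sets whose annotation names exactly 1 of 8 listed genes, namely Ephb1, Ephb2, Ephb3, Ephb4, Ephb6, Efnb1, Efnb2 and Efnb3. The annotation used gave 12 such probe sets for 7 genes, out of 45101 probe sets and 18193 named genes. They were 4 probe sets of 4 receptors (Ephb1, Ephb3, Ephb4 and Ephb6) and 8 of the 3 ligands (3 of Efnb1, 4 of Efnb2 and 1 of Efnb3). Ephb2 is not analysed here. The RGCs came from wild-type C57BL/6J embryos, labelled by age as E16 in the sample records and as E16.5 in their protocol. In each of 3 rounds, the optic tract was cut on one side and filled with rhodamine dextran, and after 2 h the dye-filled cells of the pooled ipsilateral or contralateral retinas of 2 litters were sorted by FACS. The study chose for its arrays the rounds with the strongest enrichment of Zic2 in ipsilateral RGCs. A round gave 1 ipsilateral and 1 contralateral sample, so there were 3 Affymetrix arrays per side, and each is a pool of animals hybridized after amplification of cDNA.

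EphB receptors are membrane tyrosine kinases, and ephrin-B ligands are transmembrane proteins of neighboring cells, so that contact can signal forward into the cell with the receptor and in reverse into the cell with the ligand. At the optic chiasm, ephrin-B2 on midline glia repels the axons of ventrotemporal RGCs that carry EphB1, which turn back to the ipsilateral side. Within the retina, EphB receptors are known to be graded toward ventral and ephrin-B ligands toward dorsal retina, and the 2 gradients help to map axons in the brain. Ephrin-B2 and EphB4 also mark the endothelium of arteries and veins.

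The deposited values are log2 intensities, and every difference is a log2 value, with contralateral subtracted from ipsilateral. Levels of different probe sets are not compared, since probes differ in brightness. The arrays had medians from 5.80 to 6.70, and those of a round lay within 0.06 of each other, so levels are best compared within a round. Of the 12 probe sets, 12 had a mean of at least 4.74, the level required for testing, and 10 lay above the median of their own array on 6 of 6 arrays. The exceptions were Ephb4 and Ephb6. As a check of the cell type, the 12 measured pan-RGC markers had a mean log2 level from 10.99 to 11.49 in ipsilateral and from 11.39 to 11.89 in contralateral RGCs. Of these, 0 were called (0.358% of all genes), and all 12 were lower in ipsilateral RGCs in each round (20.2% of all genes). The list includes Pou4f1, which the study uses as a marker of contralateral RGCs. Markers of retinal progenitors and of microglia were also present. Retinal progenitor markers averaged 8.40 to 9.63 in ipsilateral against 7.13 to 7.31 in contralateral RGCs, and microglia markers 8.27 to 9.07 against 4.72 to 5.67. By in situ hybridization the study also found Sox2, a gene of the progenitor list, in differentiated RGCs with Zic2. It reported Lhx2, another such gene, in ipsilateral RGCs at a weaker level or for a shorter time. In sorted pools, fewer cells of a type and less RNA per cell cannot be told apart.

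The stretches before the transcription start of Ephb1 and Efnb2 are shown because these genes form the receptor and ligand pair of the chiasm. They are the 250 bases upstream in RefSeq (GRCm38.p6, minus strand), Ephb1 at chr9:102354694-102354943 and Efnb2 at chr8:8661243-8661492. Capitals mark matches on either strand to GGGCGG (the GC box), CCAAT (the CCAAT box) and CAGCAGG (a core of sites bound by Zic proteins), and no matches overlap.
Ephb1: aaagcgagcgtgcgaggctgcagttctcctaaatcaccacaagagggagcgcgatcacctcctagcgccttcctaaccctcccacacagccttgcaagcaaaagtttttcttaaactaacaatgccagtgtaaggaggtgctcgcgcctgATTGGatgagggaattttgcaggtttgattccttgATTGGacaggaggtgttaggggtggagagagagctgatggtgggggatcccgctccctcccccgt
Efnb2: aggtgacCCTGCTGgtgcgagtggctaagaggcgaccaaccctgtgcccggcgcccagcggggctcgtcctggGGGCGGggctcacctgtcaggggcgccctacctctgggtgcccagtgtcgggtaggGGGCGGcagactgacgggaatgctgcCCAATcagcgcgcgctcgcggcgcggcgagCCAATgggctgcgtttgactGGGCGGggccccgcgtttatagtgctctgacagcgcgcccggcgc
The Ephb1 stretch has 2 CCAAT boxes and no match to the other motifs, and 54.0% of its bases are G or C. The Efnb2 stretch has 3 GC boxes, 2 CCAAT boxes and 1 match to the Zic core, which ends 237 bases before the start, and 72.0% of its bases are G or C. Among 32851 promoters of this length, 32.7% held a GC box, 33.8% a CCAAT box and 8.44% the Zic core. Promoters were found for 6 of the 7 genes, and among the other 4, the Zic core was in that of Ephb3 (1 match) and in none of Ephb4, Ephb6 and Efnb1.

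None of the 7 genes passed the test between ipsilateral and contralateral RGCs. A gene counted as called when the sides differed at least 2-fold and its limma p, after Benjamini–Hochberg adjustment, was under 0.05. This called 0 of 7 genes, where it called 0.358% of all 15346 genes (0.244% of probe sets). At this share, 0 calls are likely for any 7 genes, so the count alone says little about this family. Each of the 12 member probe sets had an adjusted p of 1, 0 had an unadjusted p under 0.05 (2.66% of all probe sets), and 0 differed by 2-fold (2.65% of all probe sets). The median difference was 0.04 over the 7 genes and −0.01 over all genes. By round the median of the members was 0.13, −0.11 and 0.04 in rounds 1 to 3. The samples of a round are paired, and in the limma fit with the round as a replicate block, the call count was again 0 (0.319% of all genes and 0.208% of probe sets), but the intervals were narrower. With the block, the 95% interval of the difference lay within 2-fold for 7 of 7 genes, as it did for 85% of all genes, and for 10 of the 12 probe sets, against 83.6%. Without it, this held for Ephb1 only. Only Efnb2 had an interval that excluded 0 in the blocked fit (1 of 7 genes, and 3 of its 4 probe sets), at adjusted p from 0.125 to 0.327 for those probe sets. An unadjusted p under 0.05 with a higher ipsilateral level was seen for 7.91% of all genes and 7.17% of all probe sets in that fit.

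**Figure D1:**
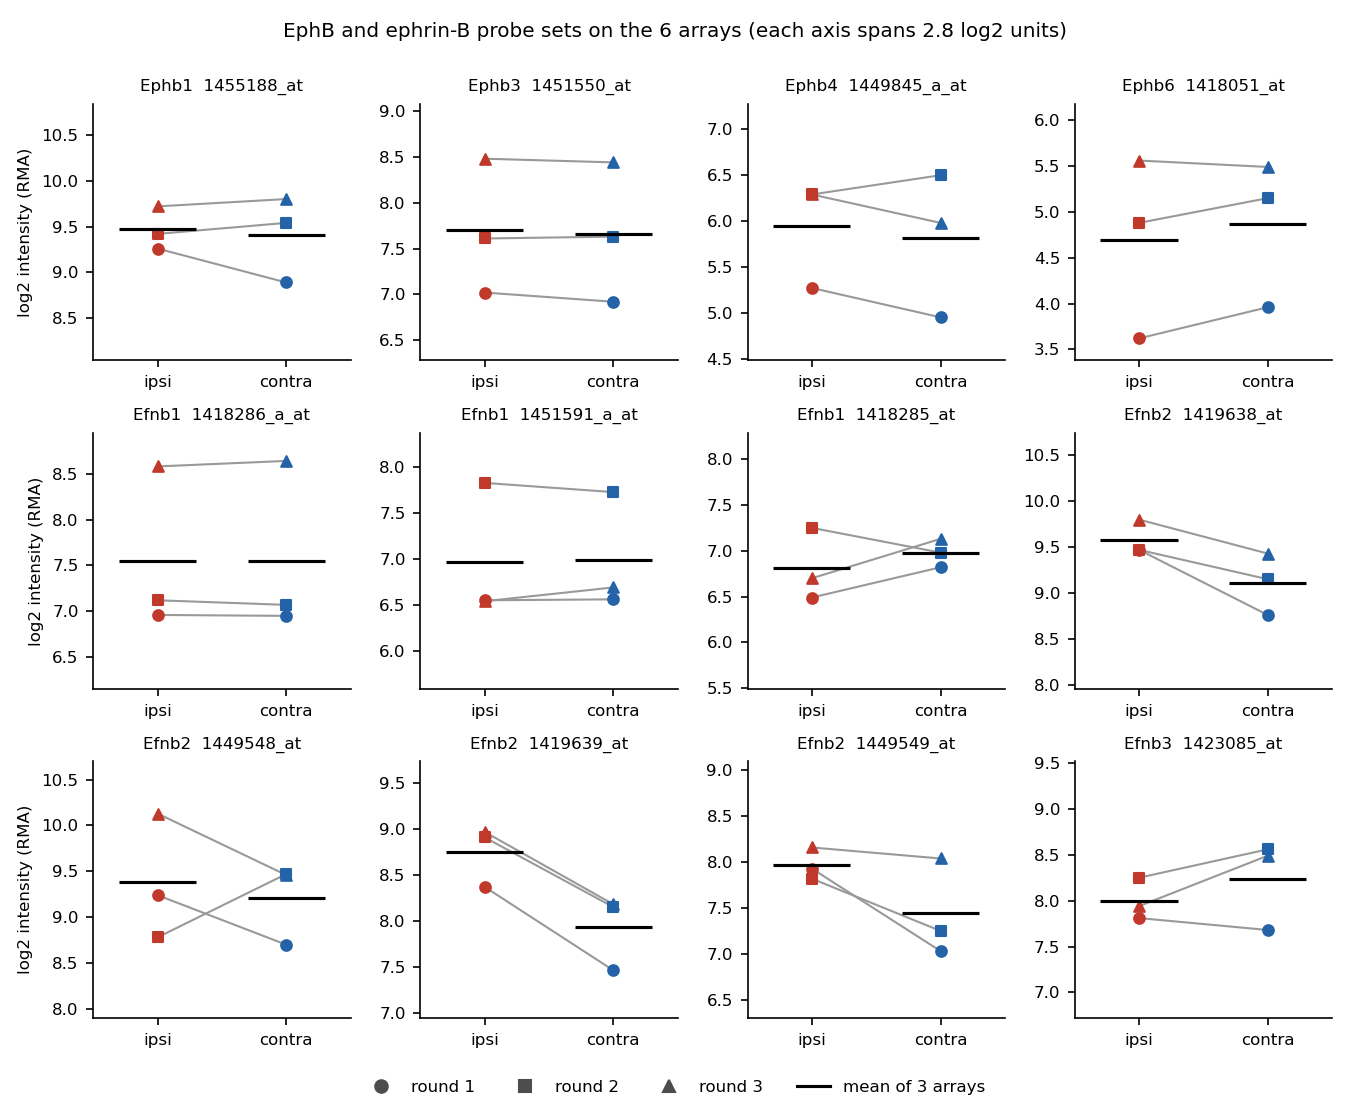
Log2 intensity (vertical axes, each spanning the same range) of the 12 probe sets in ipsilateral (ipsi, red) and contralateral (contra, blue) RGCs. Each symbol is 1 array, gray lines connect both sides of 1 round, and a black bar gives the mean over 3 arrays. For most probe sets the rounds lie farther apart than the sides, and the lines slope down toward contralateral in each round for Efnb2 probe sets 1419638_at, 1419639_at and 1449549_at.

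Ephb1, the receptor that steers ipsilateral axons away from the midline, showed no detectable difference between the populations. Its log2 levels were 9.26, 9.42 and 9.72 in ipsilateral RGCs of rounds 1 to 3, and 8.89, 9.54 and 9.80 in contralateral RGCs. The groups overlapped, and the contralateral range enclosed the ipsilateral range. Within rounds 1 to 3 the differences were 0.37, −0.11 and −0.07, so that only round 1 had more Ephb1 in ipsilateral RGCs. The mean difference was 0.06 (limma SE 0.41, adjusted p = 1), with a 95% interval from −0.82 to 0.94. With the replicate block the interval was −0.35 to 0.48. It reached 1.39-fold at most, and the interval without the block 1.92-fold, for the signal of this probe set. Zic2, the transcription factor known to induce Ephb1, had differences of 1.59, 2.94 and 2.98 in the same rounds. Zic2 was the gene on which the rounds were selected, so its own difference is not independent evidence. A single probe set reads Ephb1 here, and no other probe set checks it.

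Ephb3, a receptor of ventral retina that acts in dorsoventral mapping, had the smallest spread of the difference between sides among the receptors, while its level varied between rounds. Its log2 levels in rounds 1 to 3 were 7.02, 7.61 and 8.48 in ipsilateral and 6.92, 7.63 and 8.44 in contralateral RGCs. The sides overlapped, while the level in round 3 lay well above that in round 1 on both sides. The differences within rounds were 0.10, −0.02 and 0.04, a mean of 0.04 ± 0.06 (SD, n = 3). The 95% interval was −1.03 to 1.11 without and −0.31 to 0.39 with the block.

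Ephb4, the receptor of venous endothelium, was measured at 5.27, 6.29 and 6.29 in ipsilateral and at 4.95, 6.50 and 5.98 in contralateral RGCs of rounds 1 to 3. The sides overlapped, with ipsilateral RGCs higher in rounds 1 and 3 (0.31 in both) and lower in round 2 (−0.21). All 6 values lay under the median of their array. The mean difference was 0.14 (95% interval −0.90 to 1.18, or −0.29 to 0.57 with the block). Ephb6, a family member that lacks kinase activity, had log2 values of 3.62, 4.88 and 5.56 in ipsilateral and 3.96, 5.15 and 5.49 in contralateral RGCs. Its mean of 4.78 was just above the level required for testing, and on 3 of 6 arrays it lay under the 20th percentile of that array. Its differences of −0.35, −0.27 and 0.07 therefore rest on values close to the dimmest on the array, and the mean was −0.18 (95% interval −1.35 to 0.99, or −0.57 to 0.21 with the block).

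Efnb2, which encodes the ligand that EphB1 meets at the midline, was the member with the largest difference, and it was higher in ipsilateral RGCs. At its brightest probe set, 1419638_at, log2 levels in rounds 1 to 3 were 9.47, 9.47 and 9.80 in ipsilateral and 8.76, 9.15 and 9.43 in contralateral RGCs. The groups did not overlap, although the lowest ipsilateral value (9.47) was close to the highest contralateral value (9.43), and they overlapped once arrays were centred on their medians. The differences were 0.71, 0.32 and 0.38. The mean of 0.47 is a 1.38-fold higher level (limma SE 0.39, adjusted p = 1, 95% interval −0.38 to 1.32). With the replicate block the interval was 0.08 to 0.86 (adjusted p = 0.288).

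A second probe set of Efnb2, 1419639_at, showed a larger and steadier difference. Its log2 levels were 8.37, 8.91 and 8.97 in ipsilateral and 7.46, 8.15 and 8.18 in contralateral RGCs. Every ipsilateral value lay above every contralateral value, and this also held with arrays centred on their medians, as for 4.13% of all probe sets. The differences of 0.91, 0.76 and 0.78 had an SD of only 0.08, and the mean of 0.82 is 1.76-fold (limma SE 0.41, adjusted p = 1). The 95% interval was −0.06 to 1.70, and with the block 0.47 to 1.17 (adjusted p = 0.125). The 2 probe sets whose groups did not overlap were both of Efnb2, 2 of 12 members against 3.26% of all probe sets with ipsilateral values apart on the high side. For a single probe set, the smallest p that an exact two-sided permutation test over these 6 arrays can give is 0.1.

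The remaining probe sets of Efnb2 agreed less. Probe set 1449549_at was at 7.93, 7.82 and 8.16 in ipsilateral and at 7.03, 7.25 and 8.04 in contralateral RGCs, with differences of 0.90, 0.57 and 0.12. Ipsilateral RGCs had the higher level in each round, but the groups overlapped through contralateral round 3, and the blocked interval of its mean difference of 0.53 was 0.04 to 1.01 (adjusted p = 0.327). Probe set 1449548_at went the other way in round 2, with levels of 9.24, 8.78 and 10.13 in ipsilateral and 8.70, 9.47 and 9.46 in contralateral RGCs. Its differences of 0.54, −0.69 and 0.67 left a mean of 0.17, with a blocked interval from −0.57 to 0.91. All 4 probe sets are annotated to the same GenBank mRNA of Efnb2, and they count as 1 gene, not as 4 observations. With the values of the 4 averaged in each array, the mean difference was 0.50, also without a call. Of the 12 member probe sets, 3 were higher in ipsilateral RGCs in all 3 rounds, against 16.7% of all probe sets, and those 3 were of Efnb2. None was lower in all 3 rounds, against 19.7%.

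**Figure D2:**
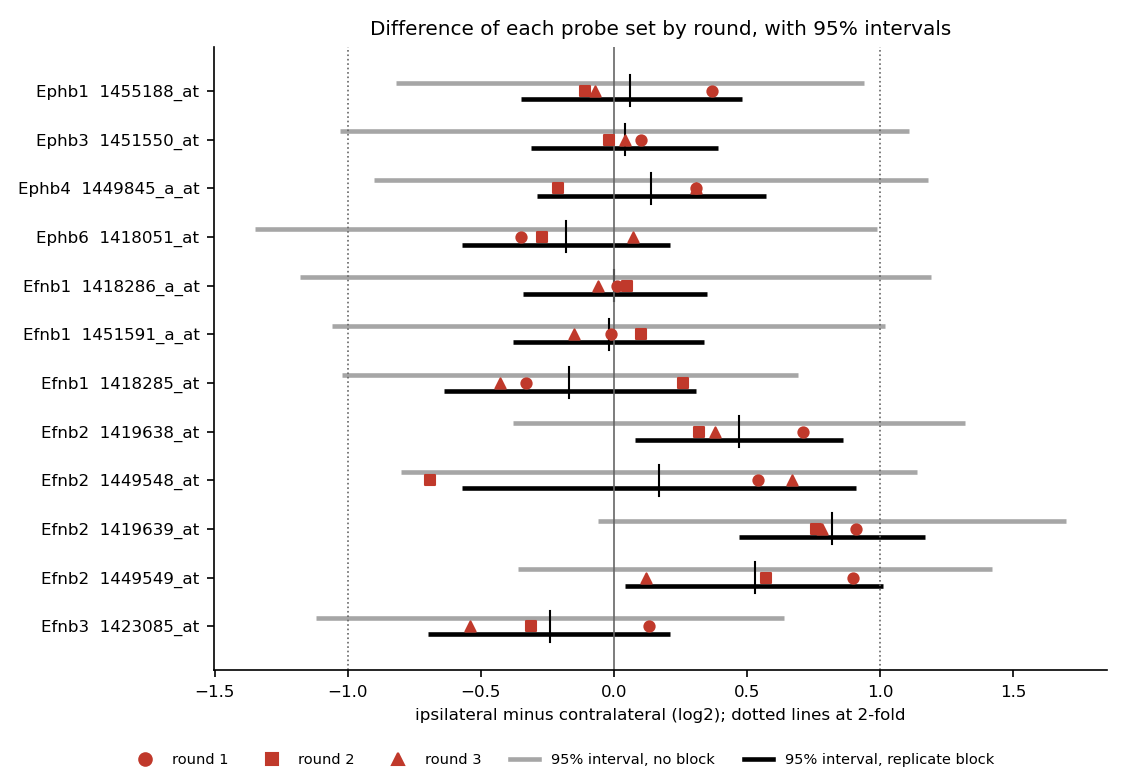
Ipsilateral minus contralateral difference (horizontal axis, log2) of the 12 probe sets in rounds 1 to 3 (red symbols), with the mean (thin black line) and the 95% interval from limma without (gray) and with (black) the replicate block. The blocked intervals of 3 Efnb2 probe sets lie above 0, and those of 10 of 12 probe sets lie within the dotted 2-fold lines.

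Efnb1, an X-linked ligand of dorsal retina, had differences within rounds of at most 0.15 in size at 2 of its 3 probe sets, which differed in how they ordered the rounds. Probe set 1418286_a_at gave 6.96, 7.12 and 8.58 in ipsilateral and 6.95, 7.07 and 8.64 in contralateral RGCs, with round 3 high on both sides. Probe set 1451591_a_at gave 6.55, 7.83 and 6.54 in ipsilateral and 6.56, 7.73 and 6.69 in contralateral RGCs, with round 2 high on both sides. The within-round differences were 0.01, 0.05 and −0.06 at the former and −0.01, 0.10 and −0.15 at the latter. Their blocked intervals, −0.34 to 0.35 and −0.38 to 0.34, reached 1.27-fold and 1.30-fold at most. Without the block the intervals reached 2.27-fold and 2.08-fold. The third probe set, 1418285_at, gave 6.49, 7.25 and 6.70 in ipsilateral and 6.82, 6.98 and 7.13 in contralateral RGCs. Its differences of −0.33, 0.26 and −0.43 were larger than those of the other probe sets, with a mean of −0.17 ± 0.38 (SD, n = 3) and overlapping groups.

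Efnb3, a ligand known from the midline of the spinal cord, was at 7.81, 8.25 and 7.94 in ipsilateral and at 7.68, 8.56 and 8.49 in contralateral RGCs. The sides overlapped, and ipsilateral RGCs were lower in rounds 2 and 3 (−0.31 and −0.54) and higher in round 1 (0.13). The mean difference was −0.24 (limma SE 0.41, adjusted p = 1), with an interval of −1.12 to 0.64, or −0.70 to 0.21 with the block. Over the family, the number of the 12 probe sets with a higher ipsilateral level was 9, 6 and 7 in rounds 1 to 3. The spread over rounds on both sides exceeded the size of the mean difference between sides for 9 of 12 probe sets. With each array centred on its median this was so for 11, all but Efnb2 probe set 1419639_at.

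Because Efnb2 is also expressed by arterial endothelium and is graded in the retina, lists of other cell types and of retinal regions were measured beside it. Of 10 listed endothelial genes, 6 were bright enough to test, while Cdh5, Tek, Tie1 and Emcn, which define these cells, were under the level for testing. The mean log2 level of the 6 was 5.34 to 6.32 in ipsilateral and 5.34 to 6.22 in contralateral RGCs. Limma called 0 of them, against 0.358% of all genes, and their median difference was −0.14, 0.08 and −0.01 in rounds 1 to 3. Kdr, a VEGF receptor that retinal progenitors also express, differed by 1.02 (the 1 endothelial gene with an unadjusted p under 0.05, adjusted p = 1), and Pecam1, an adhesion molecule of endothelium, by −0.09. The 4 measured pericyte genes and the 3 measured astrocyte genes each had a median difference of 0.08. Of these, 0 passed limma (0.358% of all genes) and 0 had an unadjusted limma p under 0.05 (3.04% of all genes). Lists this small are likely to give 0 at these shares, so the zeros say little about these cells. All 10 measured progenitor genes had a higher ipsilateral mean, and 9 were higher in each round, against 17.6% of all genes. Limma called 2 of the 10, against 0.358% of all genes. They were the transcription factor gene Sox2 (2.68, adjusted p = 0.0475) and the fatty acid-binding protein gene Fabp7 (2.75, adjusted p = 0.0301). Neither passed with the block (adjusted p = 0.156 and 0.0806). The median difference of the 10 was 1.25, 1.59 and 2.58 in rounds 1 to 3. Microglia genes had medians of 4.43, 4.0 and 2.85. All 12 measured had a higher ipsilateral mean, and 11 were higher in each round. Limma called 7 of the 12 (6 with the block), against 0.358% of all genes (0.319% with the block). The part in the Efnb2 difference of RNA from progenitors, from microglia or from RGCs that express progenitor genes was not tested.

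**Figure D3:**
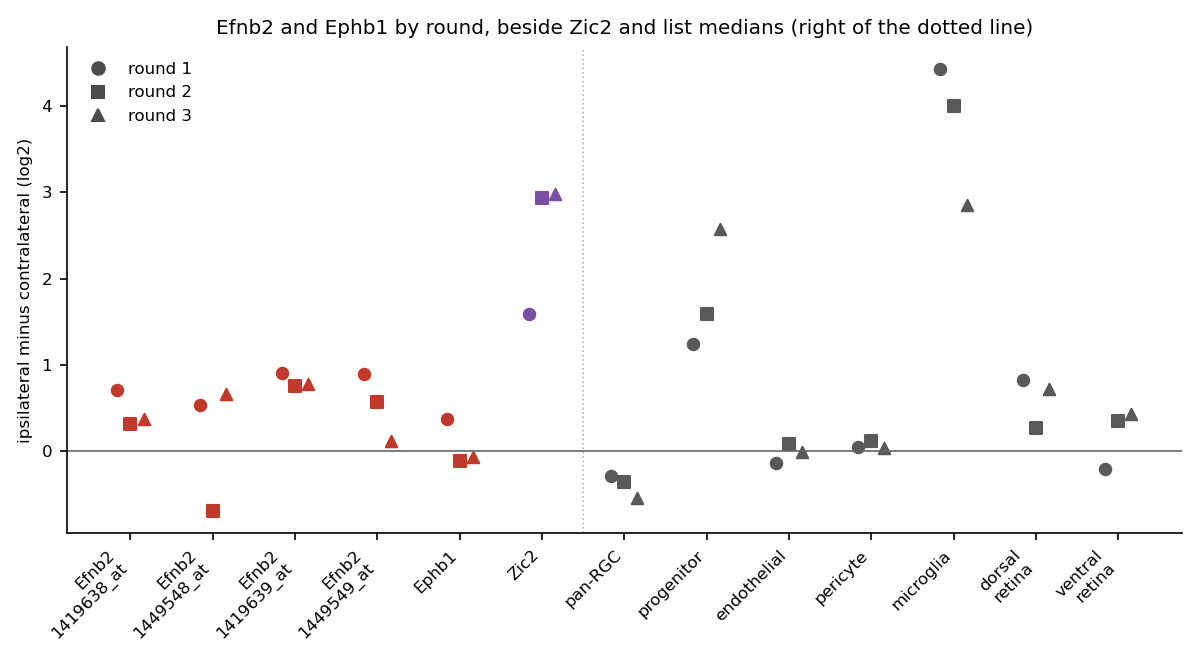
Ipsilateral minus contralateral difference (vertical axis, log2) in rounds 1 to 3 for the 4 probe sets of Efnb2 and for Ephb1 (red) and Zic2 (purple), beside the median over the measured genes of each cell type or region list (gray, right of the dotted line). Ephb1 lies between −0.11 and 0.37 and Zic2 at 1.59 or above, and the endothelial and pericyte medians lie between −0.14 and 0.12 while those of progenitor and microglia genes are at 1.25 or above.

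Genes of dorsal retina, where ephrin-B ligands are high, and of ventral retina, where EphB receptors are high and ipsilateral RGCs lie, did not pass the test in either direction (0 of 5 and 0 of 6 by limma, against 0.358% of all genes). Lists this small are likely to give 0 calls at that share. The dorsal genes with the largest differences were Aldh1a1, which makes retinoic acid (2.24, adjusted p = 0.117), Id3, a target of BMP signaling (1.25, adjusted p = 1), and Tbx3, a T-box factor (0.84). Tbx5, the T-box factor that promotes dorsal ephrin-B expression, had a mean difference of −0.61, with −1.43, 0.12 and −0.52 in rounds 1 to 3. The ventral genes with the largest differences were Vax1 (1.18), Cyp1b1 (0.85) and Aldh1a3 (0.51). Vax2, the homeodomain factor that promotes EphB expression in ventral retina, had differences of −0.18, −0.28 and −0.09. At an unadjusted limma p under 0.05, there were 2 of these 11 genes, Aldh1a1 and Id3, against 3.04% of all genes.

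The 7 lists of related genes covered forward and reverse signaling, cleavage, partners of the A class, the chiasm, and the dorsal and ventral retina just described. Of their 75 genes 70 were measured, and limma called 1, Zic2 (2.50, adjusted p = 0.0246), and none lower, against 0.358% of all genes. Zic2 was not called with the replicate block (adjusted p = 0.0739), which called 0 of the 70, or with quantile normalization. It was also not called without contralateral replicate 3 or without ipsilateral replicate 3. Among 31 genes of forward signaling below the receptors, 0 passed, 2 had an unadjusted p under 0.05 (3.04% of all genes), 9 were higher by the mean, and the median difference was −0.11. Those with the largest differences were Grb10, an adaptor that binds EphB1 (1.41, with 0.95, 1.32 and 1.96 by round, adjusted p = 0.624), Sdc2, a syndecan that EphB2 phosphorylates (1.15, with 0.88, 1.41 and 1.18, adjusted p = 1), and Yes1, a Src family kinase (0.69). Grb10, Sdc2 and Yes1 were the 3 of 31 with a higher ipsilateral level in all 3 rounds, against 17.6% of all genes, and 12 of the 31 were lower in all 3 rounds, against 20.2%.

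Reverse signaling below the ligands gave 0 of 12 calls, where 0.358% of all genes were called, and a median difference of −0.12. It had 1 unadjusted p under 0.05, that of Zhx2, against 3.04% of all genes. At these shares, 0 calls are likely for any list as small as this one and the next ones. Zhx2, a repressor that interacts with the cytoplasmic part of ephrin-B1, differed by 1.25 (0.45, 1.07 and 2.24 by round, adjusted p = 1). Grip1, a scaffold for the PDZ-binding tail of ephrin-B, differed by −0.65 (−0.71, −0.85 and −0.39), and Ptpn13, a phosphatase that acts on ephrin-B, by 0.61. Of 8 measured genes for cleavage of Eph and ephrin proteins 0 passed, also unadjusted, and the largest differences were in the gamma-secretase subunit gene Aph1a (−0.62), the sheddase gene Adam10 (−0.28) and Ncstn (−0.12). Partners outside the B class gave 0 calls. Epha4, an A-class receptor that also binds ephrin-B ligands, differed by 0.20 (95% interval −0.66 to 1.06), and Efna5, an A-class ligand that binds EphB2, by 0.30 (−0.70 to 1.29). Of the remaining chiasm genes, Slc6a4, the serotonin transporter gene, and Foxd1, a factor of ventrotemporal retina, had differences of 2.00 (adjusted p = 0.736) and 0.67 (adjusted p = 1).

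**Figure D4:**
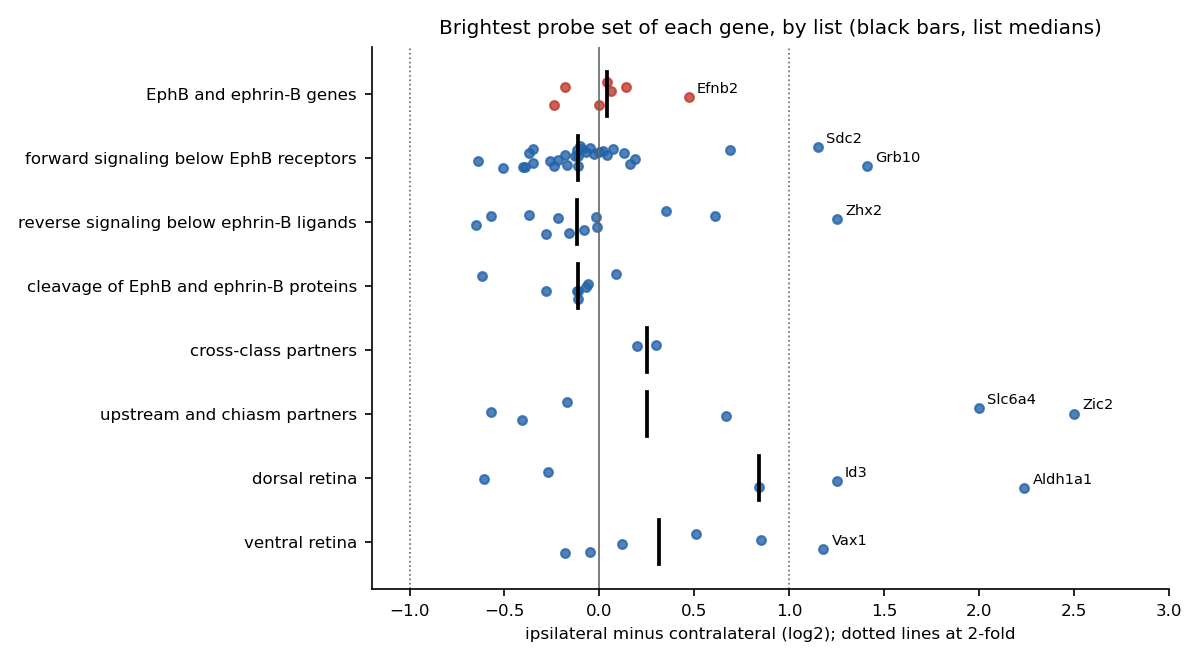
Ipsilateral minus contralateral difference (horizontal axis, log2) at the brightest probe set of each EphB and ephrin-B gene (red) and of each measured gene on 7 related lists (blue), with list medians as black bars and dotted lines at 2-fold. The EphB and ephrin-B genes lie between −0.24 and 0.47, and the medians of the 3 signaling and cleavage lists lie at −0.11 and −0.12.

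The genes most like Ephb1 over the 6 arrays, by Pearson correlation of values centred on each array median, were Pde8a, Slc25a5 and Txn1 (r = 0.9953, 0.9952 and 0.9946). They shared its order of rounds, with differences of 0.41, −0.26 and −0.08 for Pde8a. Those most like Efnb2 at 1419638_at were Pi4k2a, Zfp40 and Puf60 (r = 0.9988, 0.9982 and 0.9949), with differences of 0.90, 0.32 and 0.41 for Pi4k2a. Among 15345 other genes, 200 reached a correlation of 0.95 with Ephb1 and 92 with Efnb2. The 6 points share rounds and pairs, so these correlations describe likeness over these arrays and no more.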

How the data were processed

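Arrays (Affymetrix Mouse Genome) were hybridized with amplified cDNA of ipsilateral and contralateral RGCs, 3 each. The deposited values are log2 intensities that the authors made with RMA in Affymetrix Expression Console 1.1, per the labels; whether all arrays were normalized together is not stated. Control probe sets (64 of 45101) were left out, and 36029 probe sets with a mean at or above the 20th percentile were tested with limma 3.58.1 in R 4.3.3 without a block. The study names no test, but a 2-fold change and an adjusted p under 0.05. With these thresholds it reported many more probe sets than the 88 that limma called here, and none of an EphB or ephrin-B gene. Slc6a4, Grb10 and Id3 were among the genes it reported, and they did not pass the main fit here. The 95% intervals come from the same fit or from its form with the replicate block. Only the fit without a block was tested on simulated data, which had independent noise and no rounds. The simulation therefore does not cover the blocked intervals or the pairing of the arrays. A gene counted once is its brightest probe set. Genes were named from the annotation of the array (34945 probe sets with 1 gene, 932 with several, 9160 with none here), and 34741 of these 34945 had an identifier in RefSeq. No depth underlies intensities, and the number of arrays limits the precision.

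Replicate numbers pair the samples, since the study prepared both sides of a round together. Deviations from the group means had correlations of 0.511, 0.541 and 0.612 within rounds and from −0.353 to −0.207 between rounds. The deviations of a side cancel out over its arrays, so the negative values follow from the positive ones and are no separate evidence. The median SE was 0.44 without and 0.17 with the replicate block. The genes and lists were chosen with earlier results of these data known. The genes named are all members, the 3 genes with the largest difference on each pathway list, any called gene, Epha4, Efna5 and Zic2, and the 3 genes most like Ephb1 and Efnb2. Kdr, Pecam1, Pou4f1, Sox2, Fabp7, Tbx5 and Vax2, and markers under the level for testing, were added after their values were seen. Alternatives were the block, other filters, quantile normalization, median centring, an intensity trend, other thresholds, means over probe sets and arrays left out.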

Additional observations from a re-analysis of the deposited data

How the results depend on the processing

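The count of EphB and ephrin-B genes called was 0 under all 18 alternatives run, among them the replicate block, each left-out array, a threshold of 1.5-fold or none, and the 2-fold threshold with p-values left unadjusted. In the main fit no member had an adjusted p under 0.05 or reached 2-fold, so the changed thresholds could not give another count. Efnb2 stayed higher in ipsilateral RGCs at 3 of its 4 probe sets under each alternative, and with 1 array left out its difference lay between 0.29 and 0.63 at 1419638_at, 0.58 and 1.01 at 1419639_at, and 0.32 and 0.83 at 1449549_at. Differences near 0 changed sign. Ephb3 had 0.00 with median centring, and Efnb1 had −0.01 with quantile normalization, −0.04 with median centring and −0.06 as the mean of its probe sets. With 1 array left out the ranges were −0.20 to 0.26 for Ephb1, −0.35 to 0.43 for Ephb3, −0.29 to 0.48 for Ephb4 and −0.63 to 0.36 for Ephb6. They were −0.51 to 0.55 for Efnb1 (−0.45 to 0.35 at 1451591_a_at), −0.20 to 0.47 for Efnb2 at 1449548_at and −0.52 to −0.08 for Efnb3. Leaving out 1 array breaks the pair of its round, and these fits had no block, so the ranges take in level differences between rounds. The cause was not tested beyond the shift of array medians between rounds. With both arrays of a round left out, a choice made after seeing the data, Ephb1 was −0.09 without round 1, Efnb1 was 0.00 without round 1, −0.02 without round 2 and 0.05 at 1451591_a_at without round 3, and Efnb2 at 1449548_at was −0.01 without round 1 and −0.08 without round 3. Other receptors kept their sign without round 1, 2 or 3. Ephb3 was then at 0.01, 0.07 and 0.04, Ephb4 at 0.05, 0.31 and 0.05, and Ephb6 at −0.10, −0.14 and −0.31.

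The count of 1 called gene on the related lists was 0 with the replicate block, 0 with quantile normalization, 2 with the filter at the 50th percentile (Zic2 and Aldh1a1), 3 with an intensity trend and robust estimation (Zic2, Aldh1a1 and Grb10), and between 0 and 2 with 1 array left out. Among the fits with 1 array left out, Zic2 was lost without contralateral replicate 3 and without ipsilateral replicate 3, where Slc6a4 was called. The filter at the 50th percentile removed Ephb4 and Ephb6. Values close to the dimmest on the array limit what Ephb6 can show.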
